A study of Mus musculus with 2 samples.

Results

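Imprinted genes, 10 in all, and the regions that control their imprints were described by DNase-seq in the mouse adrenal gland: Dlk1, Meg3, Igf2, H19, Cdkn1c, Peg3, Mest, Plagl1, Grb10 and Snrpn. The genes were chosen by name as imprinted genes, with earlier results of these files known, and make up 10 of 55413 annotated genes, 8 of them among the 21938 protein-coding genes. DNase-seq finds open chromatin as DNA that the nuclease DNase I can reach and cut. Adult males of the F1 hybrid strain B6CASTF1/J, 18 to 20 months old, gave the tissue, from which 2 libraries were made in 1 group, labelled biological replicates 1 and 2. The labels name no treatment and list the same donor for both libraries. Whether the tissue came from separate animals is not said, so the spread between the libraries may be technical. With 1 group there was no comparison between conditions and no test, and every value below is a description of these libraries. The peaks within each gene body and 50 kb to each side were taken, Igf2 with H19 and Dlk1 with Meg3 as joint loci, which gave 8 loci with 96 of 98630 peaks in replicate 1 and 108 of 118249 in replicate 2.

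An imprinted gene is expressed mainly from the chromosome of 1 parent. The difference is set by DNA methylation laid down in egg or sperm at an imprinting control region. Zinc finger proteins such as ZFP57, which reads a methylated TGCCGC and recruits TRIM28 and SETDB1, help to keep it afterwards. Which factors keep it in the adult adrenal gland was not tested. At Igf2 and H19 the insulator protein CTCF binds the unmethylated maternal control region. The files give no values per parental chromosome, so a peak at a control region may come from 1 chromosome or from both. In whole tissue, fewer cells of a type and less open chromatin per cell cannot be told apart.

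The sequences that carry the description of the H19 control region are the peaks in the stretch 2 to 5 kb upstream of the H19 5′ end, where the control region of Igf2 and H19 lies. They are given on the strand of H19, in the bounds of replicate 1, with CTCF matches in capitals in the first and the second and TGCCGC matches, read on either strand, in capitals in the third. All sequences are those of the reference genome GRCm38, and the other parent of the hybrid may differ from them.
Peak nearest H19, chr7:142580221-142580420, minus strand: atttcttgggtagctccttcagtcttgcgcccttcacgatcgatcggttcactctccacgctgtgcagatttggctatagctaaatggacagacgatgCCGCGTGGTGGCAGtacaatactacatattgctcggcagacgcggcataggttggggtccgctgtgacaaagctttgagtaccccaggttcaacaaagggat
Middle peak, chr7:142580661-142580860, minus strand: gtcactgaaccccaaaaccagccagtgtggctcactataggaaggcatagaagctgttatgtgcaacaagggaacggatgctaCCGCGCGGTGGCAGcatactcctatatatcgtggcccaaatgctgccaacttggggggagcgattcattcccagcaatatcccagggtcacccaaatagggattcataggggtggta
Peak nearest Igf2, chr7:142581733-142581872, minus strand: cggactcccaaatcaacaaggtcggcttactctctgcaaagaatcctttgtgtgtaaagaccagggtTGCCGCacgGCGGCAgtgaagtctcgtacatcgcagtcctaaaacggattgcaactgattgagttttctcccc

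All 3 peaks were listed in both libraries. The authors' peak height, a signal deposited with each peak, was 0.855 in replicate 1 and 0.697 in replicate 2 for the peak nearest H19, 1.24 and 1.52 for the middle one, and 0.526 and 0.547 for the one nearest Igf2. The middle peak was thus the tallest of the stretch in both libraries, and the one nearest Igf2 the lowest. For scale, the median height over all peaks was 0.717 in replicate 1 and 0.750 in replicate 2. Of stretches at the same distance upstream of all protein-coding genes, 11.8% held a peak in both libraries.

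CTCF was searched as a consensus of 14 letters, some of them ambiguous, on both strands. Only sequences that fit every letter were counted as matches. A stretch across the capitals of the peak nearest Igf2 differs from the consensus at 1 letter, so it was not counted. Whether CTCF binds it was not tested. The first 2 of the H19 matches lay at chr7:142580309-142580322 and chr7:142580764-142580777, 2166 and 2621 bp upstream of H19, and both lay under a peak and overlapped a footprint in both libraries. A footprint is a short stretch that the authors called as protected from cutting within open chromatin. In replicate 1 the first match overlapped footprints of 7 and 15 bp, and in replicate 2 a footprint of 10 bp. The second match lay under footprints of 20 bp in replicate 1 and 21 bp in replicate 2. The third match, 3891 bp upstream of H19, was under a peak in replicate 2 only and overlapped no footprint in either library. The third is shown with 13 bases to each side for comparison with the first, whose 14 letters it shares.
CTCF match farthest upstream of H19, chr7:142582034-142582047, minus strand: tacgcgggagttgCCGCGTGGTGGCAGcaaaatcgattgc
Among stretches of that length and distance upstream of protein-coding genes, 21 of 21938 (0.0957%) held at least 2 CTCF matches that each overlapped a footprint in both libraries. The threshold of 2 equals the number of such matches at H19, and the stretch was taken as a known control region that CTCF binds. The share is thus no test of the stretch. The matches overlap another motif: a TGCCGC match shares its last bases with the first and with the third CTCF match, so the footprint at the first is counted under both motifs.

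At the promoters, 8 of the 10 genes had a peak within 1 kb of an annotated start in both libraries, and Igf2 and H19 did not. The same held for 65.9% of protein-coding genes, 34.3% of genes of any type, and 91.8% of protein-coding genes with at least 5 distinct starts, a class that 6 of the protein-coding members belong to and of which 5 were open. Each of the 8 open genes had a mean height of its tallest promoter peak below the median over all 14450 open protein-coding genes, which was 3.90 with quartiles at 1.94 and 5.83. Their places in that distribution ran from the 10.1 percentile for Dlk1 to the 45.6 percentile for Peg3. The median over the 8 was 1.63. The tallest peak was taken in each library apart, so a mean can join different peaks, as it does at Meg3 and Mest.

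**Figure D1:**
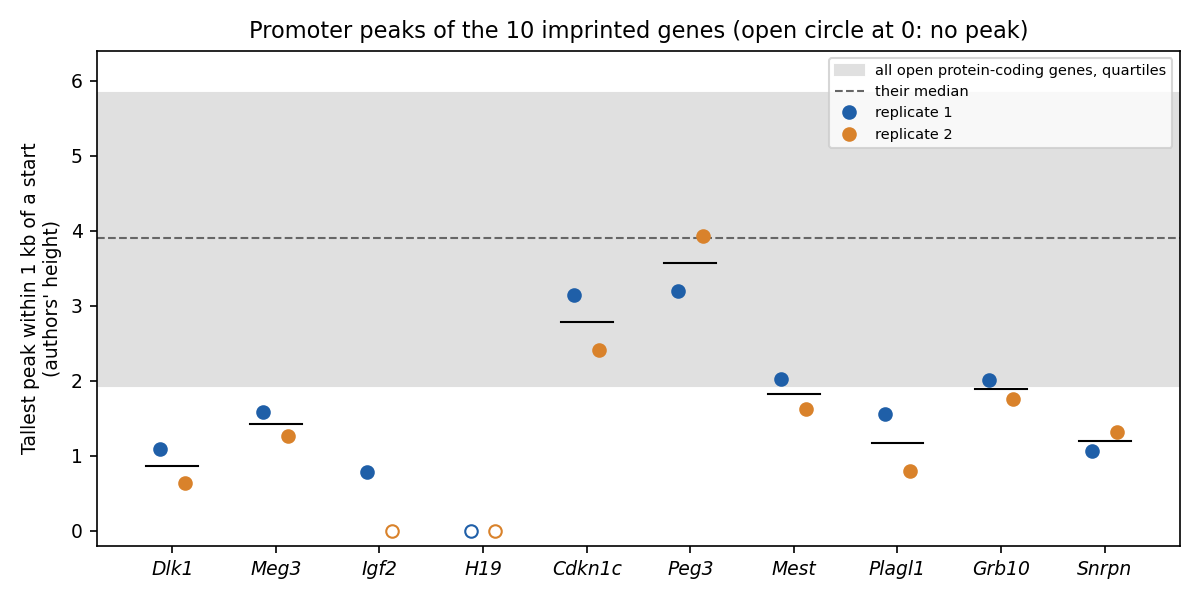
Height of the tallest peak within 1 kb of an annotated start, in the authors' unit, for each of the 10 genes. The peak was taken in each library apart, and at Meg3 and Mest it differs between the libraries. Points are the 2 libraries, black bars their mean, open circles at 0 mark no listed peak, and the grey band and dashed line are the quartiles and median over all open protein-coding genes; Peg3 and Cdkn1c stand highest and H19 has no peak in either library.

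Control regions were placed from the annotation and the reference sequence, not from the peaks. They were the 25 CpG islands within 1 kb of a start of Peg3, Mest, Plagl1, Grb10, Snrpn, Meg3 or Kcnq1ot1, the stretch upstream of H19, and the stretch 10 to 16 kb upstream of Meg3 in which the intergenic control region of Dlk1 and Meg3 lies. The islands were taken by position alone, so some of them may not be imprinting control regions, and the counts are not counts of known ones. Of these 27 regions, 12 had a peak in both libraries and 15 in at least 1. Each of the 7 genes had at least 1 island open in both libraries. A gene with several islands meets this more easily, and its share over all genes was not computed. Of the islands, 11 of 25 were open in both, where 41.6% of all CpG islands near gene starts were. By size, 8 of the 10 islands of at least 500 bp were open in both, beside 81.9% of all such islands. Of the 15 shorter ones 3 were, and no separate share over all shorter islands was computed. The 8 open large islands had mean heights of 1.07 to 3.56, with a median of 1.60, and all lay below 3.83, the median over the 12729 open islands of that size. In number the islands of imprinted genes were therefore near the background, and in height they lay in its lower part.

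**Figure D2:**
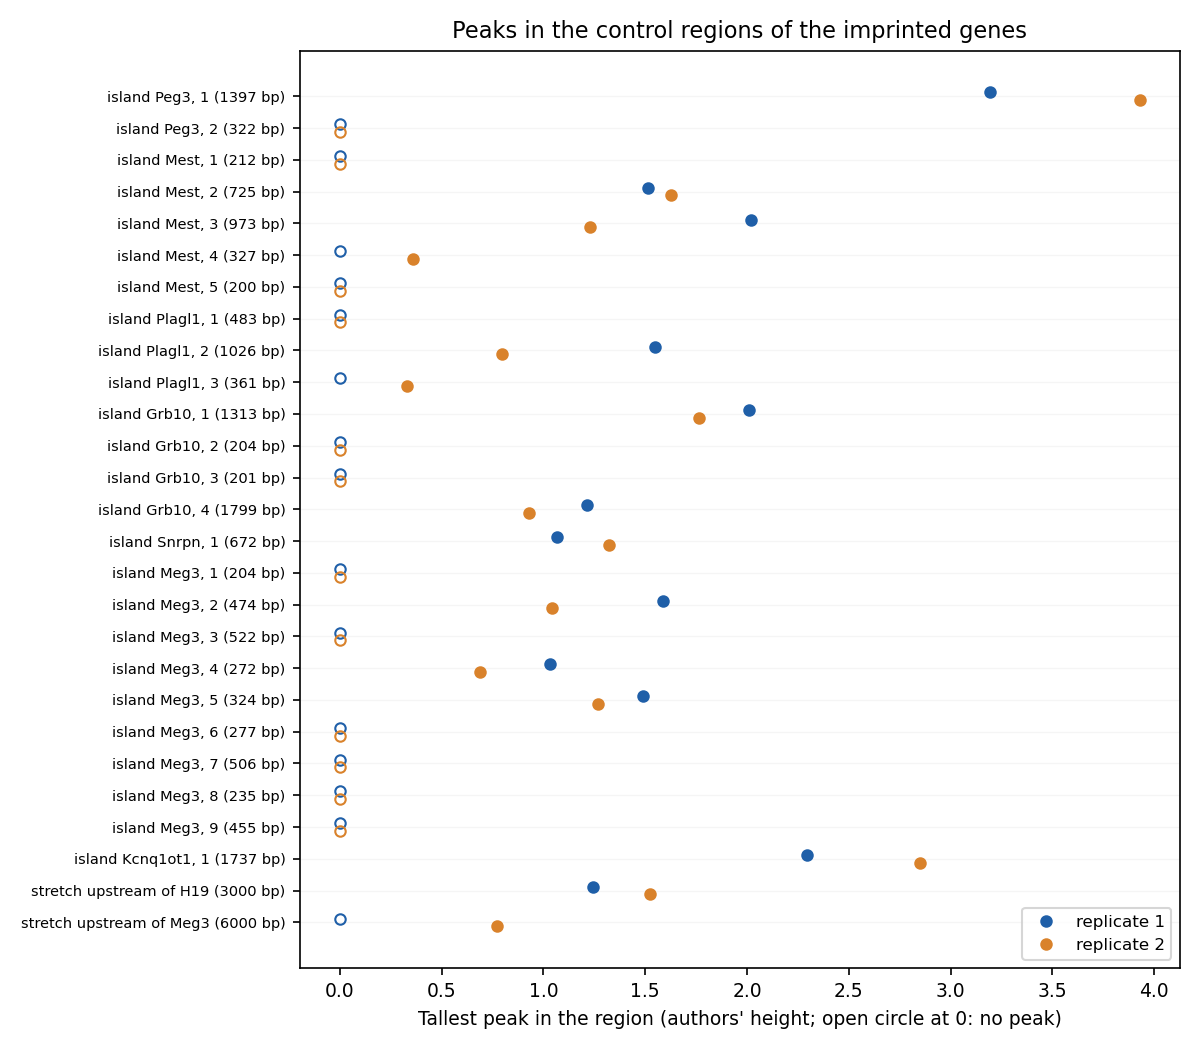
Height of the tallest peak in each control region, in the authors' unit, for replicate 1 and replicate 2, with the length of the region in brackets. Open circles at 0 mark regions with no listed peak; the islands of Peg3 and Kcnq1ot1 are the tallest, and the stretch upstream of Meg3 has a peak in replicate 2 only.

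Igf2 (ENSMUSG00000048583.16, chr7:142650766-142666816, minus strand) encodes a fetal growth factor that signals through the IGF1 and insulin receptors and is expressed from the paternal chromosome. A peak at 1 of its 9 annotated starts was listed in replicate 1, at chr7:142659401-142659680 with a height of 0.781, and none was listed within 1 kb of any start in replicate 2. In the authors' file of false discovery rates (FDR), which lists positions under 0.05, that stretch reached 0.000454 in replicate 1, with 279 of its 280 bp listed. In replicate 2 it reached 0.0347, with 15 bp listed. The signal there was thus strong enough for a peak in 1 library and at the edge of the listing in the other. The replicate 1 peak held a CTCF match with no footprint in either library.

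H19 (ENSMUSG00000000031.16, chr7:142575529-142578143, minus strand) is a noncoding RNA expressed from the maternal chromosome. None of its 7 starts had a peak within 1 kb, and the nearest peak was at the control region, at a distance of 2078 bp in replicate 1 and of 2058 bp in replicate 2. Within 1 kb of its 5′ end 26 bp were listed in the FDR file of replicate 1, down to 0.0272, and 35 bp in that of replicate 2, down to 0.012. No position there reached 0.001, while 416 and 748 bp of the control stretch did.

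Between H19 and Igf2, a peak at chr7:142610681-142610860, 32538 bp upstream of H19 and 39906 bp beyond the 3′ end of Igf2, was the tallest of the interval, with heights of 1.98 and 1.94. It lay in an intron of the predicted gene Gm33148. Its CTCF match overlapped footprints of 28 bp in replicate 1 and 32 bp in replicate 2, and it is shown because its letters differ from those in the H19 stretch.
CTCF match between H19 and Igf2, chr7:142610753-142610766, plus strand: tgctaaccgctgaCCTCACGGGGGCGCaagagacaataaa
Upstream of Igf2, peaks at chr7:142672241-142672400 had heights of 0.887 and 1.41 and at chr7:142675761-142675934 of 0.796 and 1.03, both higher in replicate 2. The tallest shared peak of the locus window, 5.38 and 4.08, was at the start of Mrpl23, a mitochondrial ribosomal protein gene on the other side of H19.

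**Figure D3:**
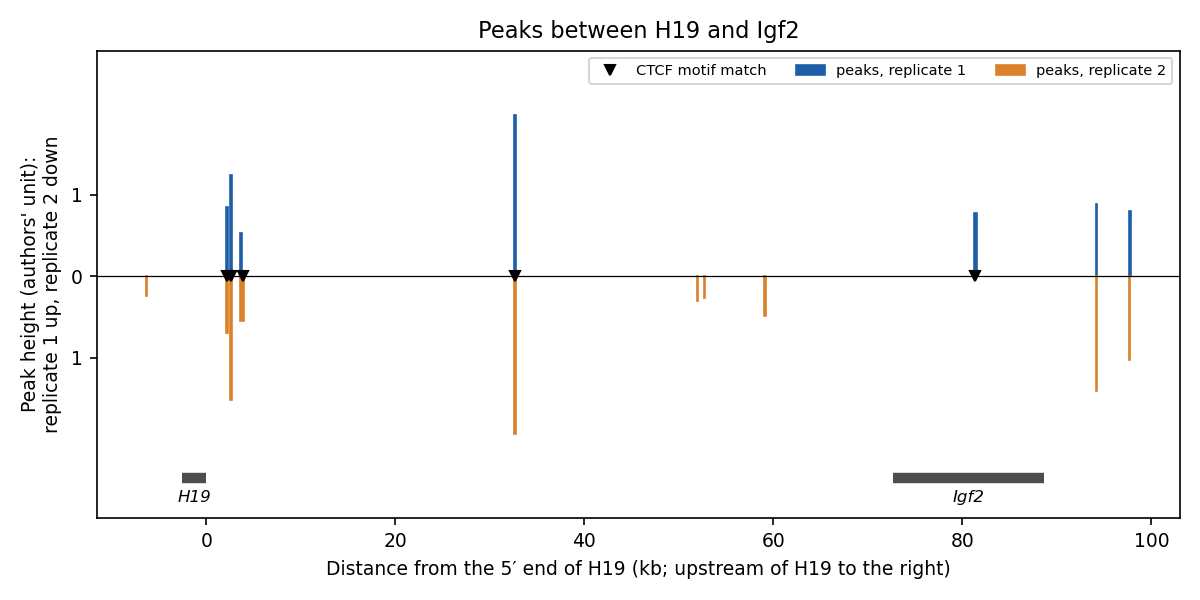
Peaks around H19 and Igf2 by distance from the 5′ end of H19 in kb, replicate 1 upward and replicate 2 downward, with height in the authors' unit. Triangles are CTCF matches within the peaks and the H19 control stretch; the peaks of the control stretch and the one between the genes appear in both libraries, while the one within Igf2 appears in replicate 1 only.

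Dlk1 (ENSMUSG00000040856.17, chr12:109452823-109463336, plus strand) encodes a Notch ligand-like transmembrane protein found on progenitor cells of several endocrine tissues and is expressed from the paternal chromosome. Its promoter peak at chr12:109453141-109453460 had heights of 1.09 and 0.630, a mean of 0.862 ± 0.328 (SD, n = 2), the lowest of the 8 open genes. The tallest shared region of the joint locus lay 14823 bp upstream of Dlk1, at chr12:109437821-109438000, with heights of 5.44 and 4.64. It held a CTCF match under footprints of 31 and 26 bp.
CTCF match upstream of Dlk1, chr12:109437907-109437920, plus strand: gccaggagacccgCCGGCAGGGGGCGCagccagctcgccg
This region was taller than the Dlk1 promoter in both libraries.

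Meg3 (ENSMUSG00000021268.17, chr12:109541001-109571726, plus strand) is a noncoding RNA expressed from the maternal chromosome. Near its starts 3 regions were open in both libraries. The one over its 5′ end, chr12:109540881-109541120, had heights of 1.59 and 1.04. The next, chr12:109542064-109542275, had heights of 1.03 and 0.690. The third, chr12:109542901-109543140, had heights of 1.49 and 1.27, so that the tallest was at the 5′ end in replicate 1 and within the gene in replicate 2. The first held a cAMP response element (CRE), TGACGTCA, 62 bp upstream of the 5′ end, with a footprint in replicate 1 only. The third held a CTCF match under footprints of 26 bp in both libraries.
CRE match at the Meg3 start, chr12:109540939-109540946, plus strand: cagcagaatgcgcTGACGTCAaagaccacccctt
CTCF match within Meg3, chr12:109543038-109543051, minus strand: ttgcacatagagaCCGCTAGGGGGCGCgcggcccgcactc
A further peak near the Meg3 5′ end, chr12:109540116-109540140, was listed in replicate 2 only, at 0.517.

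In the stretch upstream of Meg3, 1 peak was listed in replicate 2, at chr12:109528261-109528420, 12581 bp from the Meg3 5′ end, with a height of 0.772. Replicate 1 had no peak there, and no position of the whole stretch was in its FDR file. In replicate 2 the peak reached an FDR of 0.00399. The intergenic control region was thus seen in 1 library only, and 21.4% of stretches of that length and distance upstream of protein-coding genes held a peak in both. The replicate 2 peak is shown because 3 of the 10 TGCCGC matches of the stretch lie wholly within it, in capitals.
Peak upstream of Meg3, chr12:109528261-109528420, plus strand: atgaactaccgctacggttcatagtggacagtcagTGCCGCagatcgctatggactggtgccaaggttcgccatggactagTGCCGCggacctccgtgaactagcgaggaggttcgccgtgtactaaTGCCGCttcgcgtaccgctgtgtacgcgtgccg
None of these matches overlapped a footprint in either library.

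**Figure D4:**
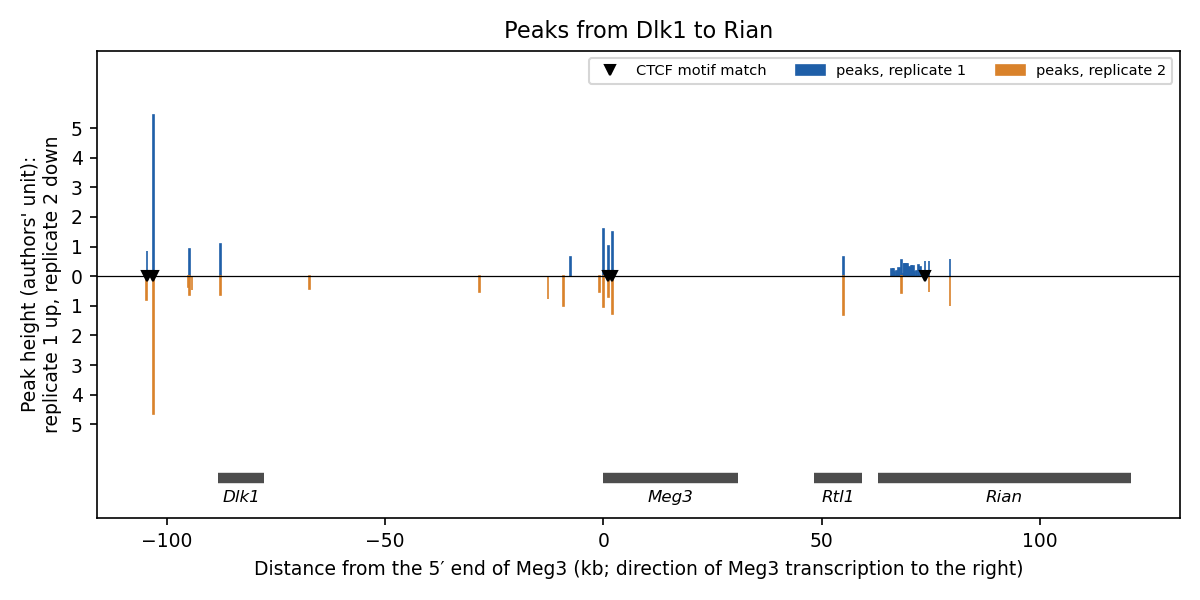
Peaks from Dlk1 to Rian by distance from the 5′ end of Meg3 in kb, replicate 1 upward and replicate 2 downward, with height in the authors' unit. Triangles are CTCF matches within peaks and control regions; the tallest peak in both libraries lies upstream of Dlk1, and a run of low peaks in Rian appears in replicate 1.

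Cdkn1c (ENSMUSG00000037664.13, chr7:143458339-143461050, minus strand) encodes the cyclin-dependent kinase inhibitor p57Kip2, a brake on the cell cycle that is expressed from the maternal chromosome. Its promoter region, chr7:143460941-143461280, had heights of 3.15 and 2.41, a mean of 2.78 ± 0.524 (SD, n = 2), the second highest of the 10 genes. Within the gene, chr7:143459561-143460161 had heights of 1.30 and 1.17 and chr7:143460446-143460780 of 0.658 and 0.540. Replicate 1 alone listed 2 more peaks near its starts, chr7:143459080-143459133 at 0.627 and chr7:143461447-143461550 at 0.685. Its control region is the promoter island of Kcnq1ot1, a long noncoding RNA whose 5′ end lies 161790 bp away, and that island had heights of 2.29 and 2.85.

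Upstream of Cdkn1c several regions were taller than the promoter in at least 1 library. The tallest, 2931 bp upstream at chr7:143463981-143464180, had heights of 4.33 and 4.34. The next, 5351 bp upstream at chr7:143466401-143466600, had heights of 4.04 and 4.15. Each held a CTCF match on the minus strand with the same 14 letters, under footprints of 31 and 30 bp at the first and 31 and 42 bp at the second. Another match, in an intron of the transporter gene Slc22a18, lay on the plus strand under footprints of 29 bp in both libraries, in a region with heights of 3.35 and 2.41.
First CTCF match upstream of Cdkn1c, chr7:143464078-143464091, minus strand: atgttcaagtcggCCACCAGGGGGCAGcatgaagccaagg
Second CTCF match upstream of Cdkn1c, chr7:143466496-143466509, minus strand: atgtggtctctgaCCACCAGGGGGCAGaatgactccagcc
CTCF match in Slc22a18, chr7:143480700-143480713, plus strand: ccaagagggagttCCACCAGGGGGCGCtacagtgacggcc
The heights of the first 2 regions varied less between the libraries, with SDs of 0.0107 and 0.0846 (n = 2), than that of the promoter. Regions 9011 and 44911 bp upstream, with heights of 2.93 and 2.96 and of 3.37 and 3.04, held no CTCF match.

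Peg3 (ENSMUSG00000002265.16, chr7:6703892-6730431, minus strand) encodes a zinc finger protein expressed from the paternal chromosome, and its control region spans its promoter and first intron. Within 1 kb of a start it had the tallest peak of the 10 genes, at chr7:6729441-6729720, with heights of 3.20 and 3.93 and a mean of 3.56 ± 0.519 (SD, n = 2). That peak began 0.711 kb inside the gene in replicate 1 and 0.731 kb in replicate 2. Its first rank depends on the 1 kb distance, as the region at the 5′ end was below the Cdkn1c promoter region (3.15 and 2.41). The region at the 5′ end, chr7:6730301-6730620, was lower, at 1.44 and 0.982. Its replicate 1 peak covered the 5′ end, and its replicate 2 peak, chr7:6730461-6730620, began 30 bp upstream of it. Another peak within the gene at chr7:6729981-6730060 was listed in replicate 1 only, at 0.488. These regions lie within 1 kb of a start of Usp29, which is read in the other direction, so they count for both genes. Deeper in the intron, chr7:6728241-6729000 had heights of 1.99 and 2.45 and chr7:6727321-6728080 of 1.05 and 1.47.

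The intron peaks held repeated matches to YY1, a zinc finger factor, searched as AANATGGC on both strands. They held 11 matches over 2174 bp, from 835 to 3008 bp inside the gene, and all 11 were on the plus strand, against the direction of Peg3. They fell into the 3 intron regions as 4, 5 and 2. They are shown in full because their number and shared orientation are the feature of the region.
YY1 match a, chr7:6727423-6727430: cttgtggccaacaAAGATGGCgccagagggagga
YY1 match b, chr7:6727845-6727852: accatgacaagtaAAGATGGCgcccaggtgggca
YY1 match c, chr7:6727934-6727941: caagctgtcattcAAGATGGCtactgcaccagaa
YY1 match d, chr7:6727964-6727971: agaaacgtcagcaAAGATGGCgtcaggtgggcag
YY1 match e, chr7:6728263-6728270: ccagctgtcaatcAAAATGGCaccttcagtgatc
YY1 match f, chr7:6728402-6728409: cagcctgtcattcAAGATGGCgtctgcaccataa
YY1 match g, chr7:6728451-6728458: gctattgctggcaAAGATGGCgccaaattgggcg
YY1 match h, chr7:6728739-6728746: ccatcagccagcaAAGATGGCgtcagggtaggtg
YY1 match i, chr7:6728880-6728887: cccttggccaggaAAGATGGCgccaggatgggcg
YY1 match j, chr7:6729483-6729490: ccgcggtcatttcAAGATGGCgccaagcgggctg
YY1 match k, chr7:6729589-6729596: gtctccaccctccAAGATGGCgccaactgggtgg
Of the 11, 10 lay under a peak in both libraries, the exception being match e, under a peak in replicate 2 only. Matches g, h, i, j and k overlapped a footprint in both libraries, match d in replicate 1 only, and the other 5 in neither. At h and i the overlap was 2 bases at the end of the match, and in 3 of the 5 the footprints covered at least 4 of the 8 letters in both libraries. A YY1 match was found in 4.88% of all 65778 shared regions, and 5 of them held at least 4 matches, of which 2 are these Peg3 regions. A search of the whole gene of 26540 bp gave 18 matches, so 7 lay outside these regions, 4 on the plus strand and 3 on the minus strand, none of them under a peak in either library. These last 2 counts, over all shared regions and over the whole gene, were made after the matches had been seen.

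**Figure D5:**
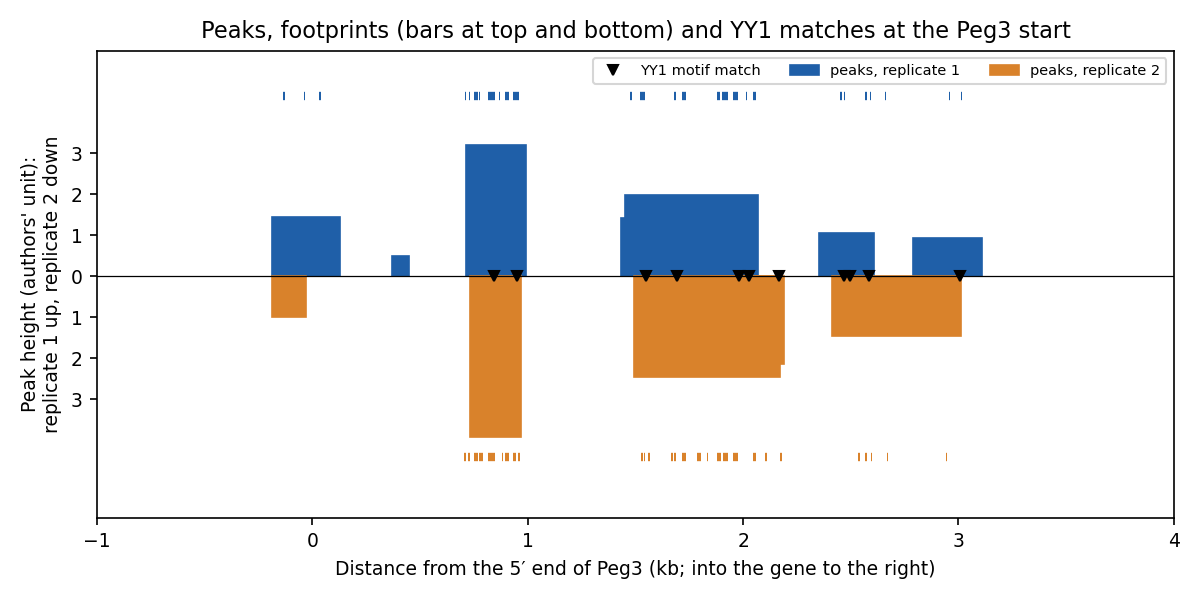
Peaks at the start of Peg3 by distance into the gene in kb, replicate 1 upward and replicate 2 downward, with height in the authors' unit. Triangles are the 11 YY1 matches of the intron peaks and the short bars at the top and bottom are footprints of replicate 1 and replicate 2; matches are drawn only where peak and control regions were searched, and the tallest peak lies inside the gene.

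Mest (ENSMUSG00000051855.15, chr6:30723547-30748465, plus strand) encodes an enzyme of the alpha/beta hydrolase family expressed from the paternal chromosome. Of its 10 starts, only those at 30738050 to 30738055 had a peak in both libraries. The region over them, chr6:30737901-30738180, had heights of 2.02 and 1.23, and a second, chr6:30737021-30737220, had heights of 1.51 and 1.63. Replicate 2 also listed 3 low peaks nearby, at 0.412, 0.322 and 0.360, that replicate 1 lacked. The island over the open starts held 10 TGCCGC matches, 2 of them under a peak in both libraries and none overlapping a footprint in both. Within 1 kb of the gene's 5′ end no position was in the FDR file of either library. The tallest shared peak of the window, 7.54 and 6.43, was at the start of the neighbouring centrosomal gene Cep41.

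Plagl1 (ENSMUSG00000019817.18, chr10:13060504-13131694, plus strand) encodes a zinc finger transcription factor that restrains cell growth and is expressed from the paternal chromosome. Its 8 clustered starts from 13090691 to 13091013 shared a region at chr10:13090681-13090960 with heights of 1.55 and 0.795, a mean of 1.17 ± 0.534 (SD, n = 2). The replicate 2 peak, chr10:13090681-13090740, covered only the edge of that of replicate 1, and the ratio of 0.513 between the libraries was the lowest of the 8 genes and below 0.845, the lower quartile over all open protein-coding genes. Its island held 6 TGCCGC matches and none under a peak in both libraries. A low peak at chr10:13091376-13091600, at 0.330, was listed in replicate 2 only, and the island at the upstream start had no peak.

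Snrpn (ENSMUSG00000102252.5, chr7:59982495-60140219, minus strand) encodes a protein of the spliceosome expressed from the paternal chromosome, and the island at its internal start is the control region of the Prader-Willi and Angelman interval. That start at 60005111 was open in both libraries and the upstream start at 60140219 in neither. The peak at the open start, chr7:60005041-60005240, had heights of 1.07 and 1.32, a mean of 1.19 ± 0.179 (SD, n = 2). The neighbouring region chr7:60004021-60004920 was low, at 0.430 and 0.397, but held 8 TGCCGC matches. These were the only regions of the 257725 bp window that both libraries shared. The start peak is shown with its 2 TGCCGC matches, read on either strand, in capitals.
Snrpn start peak, chr7:60005041-60005240, minus strand: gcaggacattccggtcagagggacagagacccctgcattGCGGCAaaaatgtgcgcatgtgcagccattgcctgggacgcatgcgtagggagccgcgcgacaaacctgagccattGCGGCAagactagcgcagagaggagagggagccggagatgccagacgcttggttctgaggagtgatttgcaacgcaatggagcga

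Grb10 (ENSMUSG00000020176.17, chr11:11930508-12038683, minus strand) encodes an adaptor that dampens insulin and IGF1 receptor signalling, and it is expressed from the maternal chromosome in most tissues and from the paternal one in neurons, where it starts at an internal island. That internal island held the tallest promoter peak of the gene, at chr11:12025801-12026020, with heights of 2.01 and 1.76 and a mean of 1.89 ± 0.177 (SD, n = 2). The island at the upstream start had a lower peak at chr11:12037121-12038140, with heights of 1.22 and 0.930, and a second at chr11:12036395-12036960, with heights of 0.558 and 0.495. The order was the same in both libraries. Which start the gene uses in this tissue was not tested. A peak at chr11:12026361-12026500 was listed in replicate 1 only, at 0.504. An intronic region at chr11:11973501-11973660, away from any start, was as tall as the internal island, at 1.94 and 1.95.

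Over the 63 shared regions of the 8 loci, 13 (20.6%) held a CTCF match, beside 15.9% of all shared regions, and in 9 (14.3%) the match overlapped a footprint in both libraries, beside 13.7% of all shared regions. The share of regions with a footprinted CTCF match was thus near the background. TGCCGC was in 14 (22.2%) beside 13.4%, and in 3 (4.76%) the match overlapped a footprint in both libraries, beside 2.26%. The SP/KLF box GGGCGG was in 41.3% beside 30.6%, and overlapped a footprint in both libraries in 15.9% beside 13.8%. The YY1 motif was in 3 (4.76%) beside 4.88%, with such an overlap in 2 (3.17%) beside 1.39%. CAAGGTCA, the site of the adrenal regulator SF-1, was in none of the 63 beside 2.40% of all shared regions, and this says only that these letters are not in these windows. The NRF1 site GCGCATGCG was in 1 region (1.59%), within Meg3, beside 1.11%, and the CRE in 2 (3.17%) beside 1.29%. Neither overlapped a footprint in both libraries in any of the 63, beside 0.959% for NRF1 and 0.97% for the CRE. Base composition differed too: the median GC content was 59.4% in the regions of the loci and 55.5% in all shared regions. Among distal regions it was 55.6% and 52.5%, and within 1 kb of a start it was closer, 63.6% and 62.9%. The part of base composition in the motif shares was not tested.

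Of 127 merged regions in the 8 loci, 63 (49.6%, exact Clopper-Pearson 95% interval 40.6 to 58.6%) had a peak in both libraries, beside 45.7% of all merged regions. The interval covers counting error only, and regions of 1 locus are not independent. Of the 63, 17 lay within 1 kb of a start of the 10 genes, 11 near starts of other genes and 35 away from any start. Footprints were shared at 108 of 355 (30.4%, 25.7 to 35.5%), beside 30.9% over all footprints. The loci differed widely in how many peaks they held. The window of Snrpn had 1.36 peaks per 100 kb, at the 13.9 percentile of windows around protein-coding genes, and that of Cdkn1c had 20.0, at the 93.4 percentile, where the median was 7.0.

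Rian, a noncoding RNA downstream of Meg3, held 14 regions of replicate 1 alone between chr12:109606941 and chr12:109614750, with heights of 0.106 to 0.526. A further 3 regions in Rian were in both libraries. Of all merged regions of Dlk1 and Meg3, 34.3% were in both libraries, and of the 18 outside Rian, 9 were. Over the 8 loci the share outside Rian was 54.5%. This setting was chosen after the data had been seen.

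Other genes of the same clusters, some of them noncoding, were open in both libraries in 22 of 29 cases (75.9%). Beside this stand 65.9% of protein-coding genes, 34.3% of genes of any type and 91.8% of protein-coding genes with at least 5 starts. The tallest promoter peaks were at Copg2, a coat protein gene beside Mest (8.10 on average), Nap1l4, a histone chaperone-like gene (7.53), and Ube3a, the ubiquitin ligase gene of the Angelman interval (7.25). Ndn, Rtl1, Th and Zfp264 had none in either library. Of imprinted genes elsewhere 22 of 25 (88%) were open, to be read beside the same 3 shares. They were led by Commd1 (8.10), Inpp5f (7.64) and Trappc9 (6.57), and Slc38a4, an amino acid transporter gene, had no peak. The median mean height was 1.64 for the open genes of the first list and 2.72 for those of the second, both below the 3.90 of open protein-coding genes.

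Factors that set or keep imprints were open in 13 of 15 cases. The methyltransferase gene Setdb1 had a mean of 6.70, its partner Trim28 of 6.01 and Uhrf1, which guides maintenance methylation, of 5.31. Zfp57 was among the open genes with heights of 0.648 and 0.645. Ctcfl and Dppa3, both known from germ cells and early embryos, had no promoter peak. All 13 genes of IGF and insulin signalling were open, led by the receptor genes Igf1r (6.85) and Insr (5.82) and the adaptor gene Irs2 (6.50). With the authors' other, shorter peak list 9 of the 13 were. The median mean height over the 13 was 1.82, and over the open genes of the imprint factors 3.99, beside 3.90 over open protein-coding genes. The protein-coding background for the counts of both lists is the 65.9% given above, and 91.8% for genes with at least 5 distinct starts. All 13 open imprint factors belong to that class, as do some of the IGF and insulin genes. Ctcfl and Dppa3, with 1 and 2 starts, do not.

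Marker genes of the tissue were counted in the same way, beside the 65.9% of protein-coding genes and the 91.8% of those with at least 5 starts. Of 6 adrenal cortex markers 5 were open in both libraries and Mc2r in neither. Of 6 medulla markers 2 were open, Chga and Chgb, and Th and Pnmt had no promoter peak in either library. Open in both were also 2 of 3 endothelial, 1 of 3 macrophage, 3 of 3 fibroblast and capsule, 1 of 2 adipocyte and 1 of 4 liver and kidney markers, with Alb, Ahsg and Umod at none. The cortex count is near the background, and the lists are small, so these counts do not by themselves test the label. How much each cell type adds to the peaks of the imprinted genes was not tested.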

How the data were processed

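For each of 2 adrenal DNase-seq libraries the authors deposited lists of peaks, of footprints and of false discovery rates on mm10, made per library, per the labels and index text. Which aligner and which callers of peaks and footprints were used is not given in the sources used here. Peak height is a signal deposited by the authors, in whole multiples of a step of 0.00531 in replicate 1 and of 0.00750 in replicate 2, and its scaling is not stated there either. The footprint score in the deposited files was 0.01 in every row and was not used. False discovery rates, deposited as q-values by the authors, are listed only under 0.05. Read depth was not analysed here. Medians of 135 and 100 steps per peak show how finely heights are resolved.

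The 10 genes, the gene lists and the motifs were chosen with earlier results of these data known. Coordinates are 1-based on GRCm38 (mm10), with GENCODE vM21 and the RefSeq sequence of that build. Chromosomes 1 to 19, X and Y were used. The longer of each library's 2 peak lists (98630 and 118249 peaks) was used, of which 4.05% and 3.70% overlapped another peak of the same list. A gene was open with a peak within 1 kb of any start in both libraries. Peaks overlapping by at least 1 bp were merged into regions and called shared with a peak from both libraries. CpG islands were called at 200 bp, a GC content of 50% and an observed to expected CpG ratio of 0.6. A match counted as under a peak or footprint with 1 bp of overlap. The overlap, start, motif and island steps were tested on simulated data (Python 3.11.15, numpy 2.4.6, scipy 1.17.1, pysam 0.24.0).

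The text names all 10 genes, the 3 tallest open genes of each list and list genes with no promoter peak, the tallest shared peak of a locus, and peaks in control regions or within 1 kb of a start of the genes. Other peaks, and Zfp57, were named after their values were seen. Alternatives were the shorter peak list, other distances, windows, overlaps and island rules, peaks above the median height, and each library alone.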

Additional observations from a re-analysis of the deposited data

How the results depend on the processing

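The count of open genes was 8 with the shorter peak list and at 500 bp or 2 kb, 7 with peaks above the median height (Dlk1 dropped out), 8 to 9 with each library alone, and 5 at the gene 5′ ends alone, where Mest, Plagl1 and Snrpn were lost because their open starts are internal. All protein-coding genes were open in 61.1% with the shorter list, 61.2% at 5′ ends and 59.4% above the median height. The median promoter height of 1.63 became 1.26 at 500 bp, 1.31 at 5′ ends alone, 1.82 when lower peaks were dropped at the median height, and 1.47 to 1.59 with each library alone. The share of regions in both libraries rose from 49.6% to 70.2% with peaks above the median height. The median of 7.53 peaks per 100 kb became 4.35 with the shorter list, 3.54 above the median height and 4.92 (replicate 1) to 8.52 (replicate 2) with each library alone. The control regions open in both numbered 12, 12 to 15 with each library alone, and 7 of 10 with stricter islands, a rule that leaves fewer regions. Footprint sharing fell from 30.4% to 22.5% when 0.5 of each footprint had to overlap. Of the alternatives, 46 left the value within the spread between the libraries, its counting interval or 1.5 times the count, and 11 did not. All of those for the gene lists were among the 46. Even so, with the shorter peak list the open genes of the same clusters fell from 22 to 17 of 29. Those of imprinted genes elsewhere fell from 22 to 18 of 25. No paired analysis was possible because there was 1 group and the results come from no test.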

Other observations

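Imprinted genes that share or face a promoter elsewhere in the genome were also measured, and are named here after their values had been seen. Peg10, a retrotransposon-derived gene, and Sgce, which is read in the other direction, shared 1 peak with heights of 3.12 and 1.95. Airn, the noncoding RNA that starts in an intron of the IGF2 receptor gene Igf2r, had heights of 1.91 and 1.85, and Igf2r itself 1.56 and 1.61. Nnat had heights of 1.86 and 2.99 and Blcap, the gene in which it lies, 2.85 and 3.53. Mcts2, a retrogene within H13, had heights of 3.60 and 3.61, below the 5.80 and 4.24 of H13. Zrsr1, a retrogene within Commd1, had 2.99 and 3.43, below the 8.12 and 8.08 of Commd1. At the Gnas locus the gene had heights of 4.85 and 2.92, and its antisense RNA Nespas a peak in replicate 2 only, at 0.360.

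In the Prader-Willi and Angelman interval, Mkrn3 had promoter heights of 1.86 and 2.45, Peg12 of 1.52 and 1.16 and Magel2 of 0.494 and 0.570, while the neighbouring Ndn had no promoter peak. Dio3, at the far end of the Dlk1 and Meg3 domain, had heights of 1.41 and 1.17, and Mirg a peak in replicate 1 only, at 0.260.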
